A study of Mus musculus with 47 samples.

Results

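The organic anion, organic cation and ABC transporters of mouse liver were taken as every gene whose symbol begins with Slco, Slc22a, Slc47a, Abcb, Abcc or Abcg followed by a digit, leaving out Slco2a1, Slc22a5 and Abcb11. This naming rule uses no measured value, but it was set with earlier results of these data known. It found 50 genes among the 20320 in the count table. Polyadenylated RNA was sequenced from 47 liver libraries of 3 inbred strains, all wild type: NZO/HlLtJ, the New Zealand Obese strain, CAST/EiJ, a wild-derived strain, and C57BL/6J, a common laboratory strain. Males and females of each strain ate a diet with 44% fat, described as high in fat and sugar, or a control diet with 10% fat, both with fiber, from week 6, and liver was collected at week 15. There were 12 groups of 4 libraries, with 3 in the group of CAST/EiJ males fed 10% fat. The labels do not say that each library came from a separate animal, so p-values measure only the spread between these libraries. In bulk liver, fewer cells of a type and less RNA per cell cannot be told apart.

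Hepatocytes take organic solutes from the blood across their sinusoidal face and pass them, often after conjugation, into bile across their canalicular face. Slco genes encode organic anion transporting polypeptides, which import bile acids, bilirubin, thyroid hormones and drugs. Slc22a genes encode carriers of organic cations and anions, and Slc47a genes encode proton exchangers that expel cations. ABC proteins pump their substrates with ATP: Abcb4 delivers phosphatidylcholine to bile, Abcc2 and Abcg2 export conjugates and drugs into bile, Abcc3 and Abcc4 export conjugates back to blood, and Abcg5 pairs with Abcg8 to move sterols into bile. Many such genes are known in mouse liver to differ between the sexes under the pattern of growth hormone secretion.

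Library totals ran from 21.6 to 47.8 M counts. Of the 50 genes, 47 passed the filter on low counts and were tested. The other 3, Slc22a2, Slc22a13 and Abcg4, reached at most 0.195, 0.117 and 0.145 CPM, counts scaled to a common library total. Levels of different genes were set side by side per kilobase of annotated exon, except in the sum of Slc22a28 and Slc22a30, which is in CPM. Slco1b2, the main hepatocyte organic anion importer, averaged 215 ± 42.6 CPM per kb (SD, n = 47). Abcc2 averaged 78.1 ± 12.2 CPM per kb, and Slco1a1 averaged 63.6 ± 47.3 CPM per kb. In all, 19 genes averaged at least 10 CPM per kb, 10 genes between 1 and 10, and 21 genes under 1.

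Hepatocyte markers (6 genes, among them Alb and Ttr) summed to 44300 to 104000 CPM in males and 78600 to 133000 CPM in females. In CAST/EiJ they summed to 44300 to 71400 CPM in males, all below the 78600 to 117000 CPM in females. Gene by gene, 2 of the 6 hepatocyte markers were higher and 1 lower in males over the strains, with a median log2 fold change of 0.118 against -0.011 over all genes, and in CAST/EiJ 0 were higher and 2 lower. All 6 Kupffer cell markers were lower in males over the 3 strains, with sums of 83.1 to 290 CPM in males and 132 to 345 CPM in females. The part of these markers in the sex differences below was not tested. Pancreatic RNA, read from Cpa1 at 20 CPM or more, stood out in 5 libraries: replicates 1 and 2 of C57BL/6J females on 44% fat, replicates 2 and 3 of C57BL/6J males on 10% fat, and replicate 2 of CAST/EiJ females on 44% fat. Where a call described below was lost without these 5 libraries, its value without them is given. Replicate numbers used here follow the order of the sample identifiers within each group and are not in the labels.

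Tests used edgeR's quasi-likelihood method over all 16650 genes that passed the filter, and calls are genes whose p, after Benjamini-Hochberg adjustment, was under 0.05. Male against female, averaged over the strains, 30 of the 47 transporters were called, 11 higher and 19 lower in males, where 38.6% of all genes tested were called (19% higher and 19.6% lower). NZO/HlLtJ against C57BL/6J called 24, of which 10 were higher and 14 lower, against 49.1% of all genes (25.5% higher and 23.6% lower). CAST/EiJ against C57BL/6J called 39, of which 18 were higher and 21 lower, against 67.9% of all genes (32.6% higher and 35.3% lower). NZO/HlLtJ against CAST/EiJ called 37, with 20 higher and 17 lower, against 68.1% of all genes (35.3% higher and 32.8% lower). The 44% fat diet against the 10% fat diet called 9, of which 7 were higher and 2 lower, against 9.42% of all genes (5.52% higher and 3.9% lower). These diet counts leave out Slco2a1 and Abcb11, both called lower on 44% fat, and Slc22a5, which was not called. The median log2 fold change of the 47 genes was -0.098 for sex against -0.011 over all genes, and 0.094 for diet against 0.005 over all genes. Slc22a15, with 6.86 to 13.1 CPM in NZO/HlLtJ, 7.64 to 14.7 CPM in CAST/EiJ and 7.56 to 16.4 CPM in C57BL/6J, was called in no comparison. The sample identifiers fall into 3 runs of 16, 16 and 15 libraries, a possible batch. In NZO/HlLtJ, run 2 holds only females on 10% fat and males on 44% fat, and run 3 only the reverse. Within either of these runs, sex and diet cannot be told apart in that strain. Between them, a diet effect that differs between the sexes cannot be told apart from run. Within runs 1, 2 and 3 the sign was the same for 29, 29 and 30 of the 30 sex calls, of which 15, 13 and 18 were called within the run. For diet the sign was the same for 9 of 9 calls in each run, with 0 called within any run. Each run is part of the libraries that gave these calls, so a shared sign is no independent test of them.

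**Figure D1:**
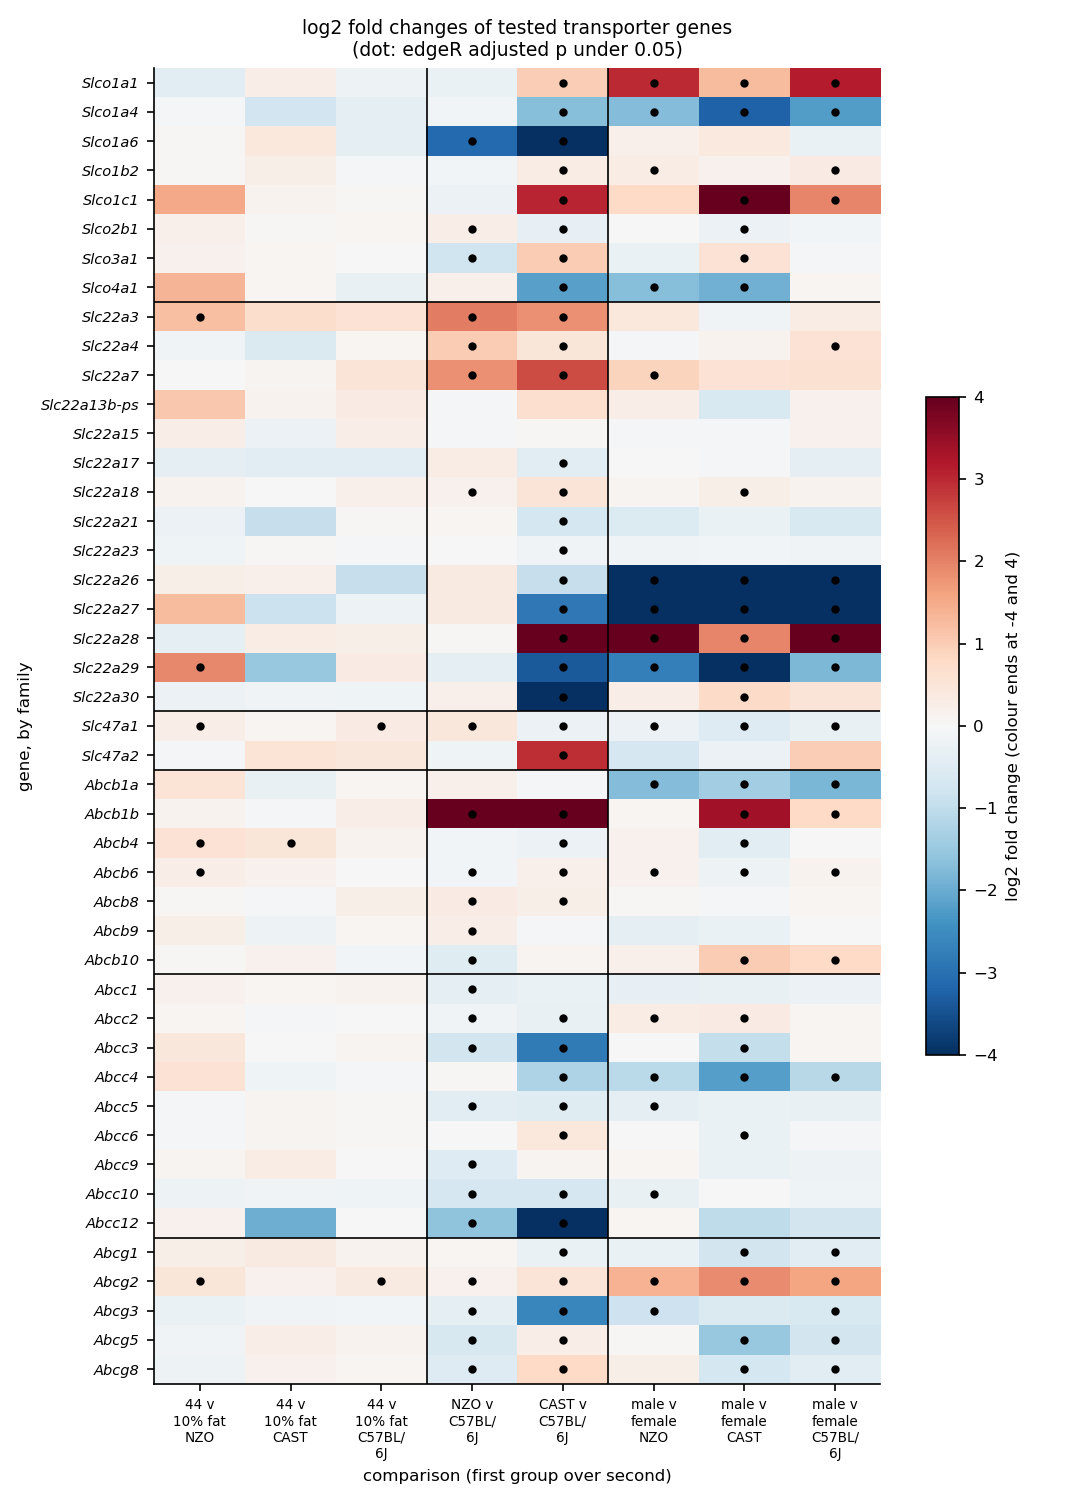
Rows are tested transporters, columns are comparisons with the first-named group over the second, colour is the log2 fold change (scale ending at -4 and 4), and a dot marks an edgeR adjusted p under 0.05. The columns for diet within a strain hold 6 dots for NZO/HlLtJ, 1 for CAST/EiJ and 2 for C57BL/6J, against 18, 26 and 20 dots in the columns for sex.

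Within single strains, male against female called 18 transporters in NZO/HlLtJ, 7 higher and 11 lower, where 17.2% of all genes were called (7.94% higher and 9.31% lower). In CAST/EiJ 26 were called, 10 higher and 16 lower, against 30.3% of all genes (16.1% higher and 14.2% lower), and in C57BL/6J 20 were called, 9 higher and 11 lower, against 16.8% (8.1% higher and 8.7% lower). Higher in males of all 3 strains were Slco1a1, Slc22a28 and Abcg2, 3 of the 47, where 2.4% of all genes tested were called so. Lower in males of all 3 strains were Slco1a4, Slc22a26, Slc22a27, Slc22a29, Slc47a1, Abcb1a and Abcc4, 7 of the 47, where 3.12% of all genes tested were called so. The sex effect differed among the strains for 17 transporters, where 13.6% of all genes tested did. Abcb6, a porphyrin transporter named here after its values were seen, was the 1 gene called in all 3 strains in differing directions, higher in males of NZO/HlLtJ and C57BL/6J and lower in males of CAST/EiJ, with log2 fold changes of 0.17 ± 0.051 (SE), 0.15 ± 0.051 and -0.20 ± 0.053. Its NZO/HlLtJ call was lost without NZO/HlLtJ males on 44% fat replicate 3 (adjusted p 0.0538), and its C57BL/6J call in 11 of 47 refits that left out 1 library, with adjusted p up to 0.111, and without the 5 libraries with pancreatic RNA (0.497). The deposited counts of Abcb6 were not whole in 47 of 47 libraries, so fractions of reads were assigned to it.

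Slco1a1, an importer on chromosome 6 that takes up steroid and bile acid conjugates, was higher in males. NZO/HlLtJ males had 262 to 670 CPM with a median of 494, against 9.36 to 132 CPM with a median of 60.8 in females. CAST/EiJ males had 457 to 723 CPM with a median of 621, against 110 to 331 CPM with a median of 252 in females. C57BL/6J males had 377 to 780 CPM with a median of 551, against 10.1 to 111 CPM with a median of 75.7 in females. The sexes did not overlap in any strain, and CAST/EiJ females had the highest female median. The log2 fold change, male over female, was 2.98 ± 0.41 in NZO/HlLtJ, 1.26 ± 0.40 in CAST/EiJ and 3.13 ± 0.41 in C57BL/6J, with edgeR adjusted p of 1.1e-06, 0.0136 and 4.01e-07. These effects differed among strains (adjusted p 0.0282), a call lost without replicate 1 or replicate 2 of CAST/EiJ males on 10% fat (up to 0.0626) and with a clock gene score, which sets Dbp and Ciart against Arntl and Npas2 in each library, as covariate (0.0611).

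Slco1a4, a neighbour that also imports cardiac glycosides, was lower in males. NZO/HlLtJ males had 13.4 to 43.4 CPM with a median of 21.1, against 55.6 to 106 CPM with a median of 74.9 in females. CAST/EiJ males had 2.55 to 6.64 CPM with a median of 4.5, against 19.8 to 77.1 CPM with a median of 39.3 in females. C57BL/6J males had 9.59 to 43.8 CPM with a median of 19.4, against 67.7 to 132 CPM with a median of 101 in females. Males lay below females in each strain without overlap, and CAST/EiJ had the lowest median in both sexes. On the log2 scale the fold changes, male over female, were -1.72 ± 0.25, -3.25 ± 0.29 and -2.22 ± 0.25 in NZO/HlLtJ, CAST/EiJ and C57BL/6J, and they differed among strains (edgeR adjusted p 0.00841). The coding sequences of Slco1a1 and Slco1a4 match at 86.7% of aligned bases, and their transcripts share 33 windows of 100 bases, where reads could be split between them.

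Slco1b2 was higher in males over the strains. It averaged 1150 ± 172 CPM in males (SD, n = 23) and 969 ± 208 CPM in females (n = 24), a log2 fold change of 0.26 ± 0.061 (edgeR adjusted p 0.000778). Slco1c1, a thyroxine carrier best known from brain vessels, had 2.03 to 10.4 CPM with a median of 4.68 in CAST/EiJ males, against at most 0.0849 CPM in CAST/EiJ females. In the other strains its highest library was at 0.188 CPM, so every CAST/EiJ male library lay above every other library. The sex effect on Slco1c1 differed among strains with an adjusted p of 6.9e-06. Slco3a1, a prostaglandin and thyroid hormone carrier, was likewise higher in CAST/EiJ males, at 9.53 to 11 CPM, than in CAST/EiJ females, at 6.09 to 7.95 CPM, with no overlap and a log2 fold change of 0.57 ± 0.11 (adjusted p 3.86e-05).

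**Figure D2:**
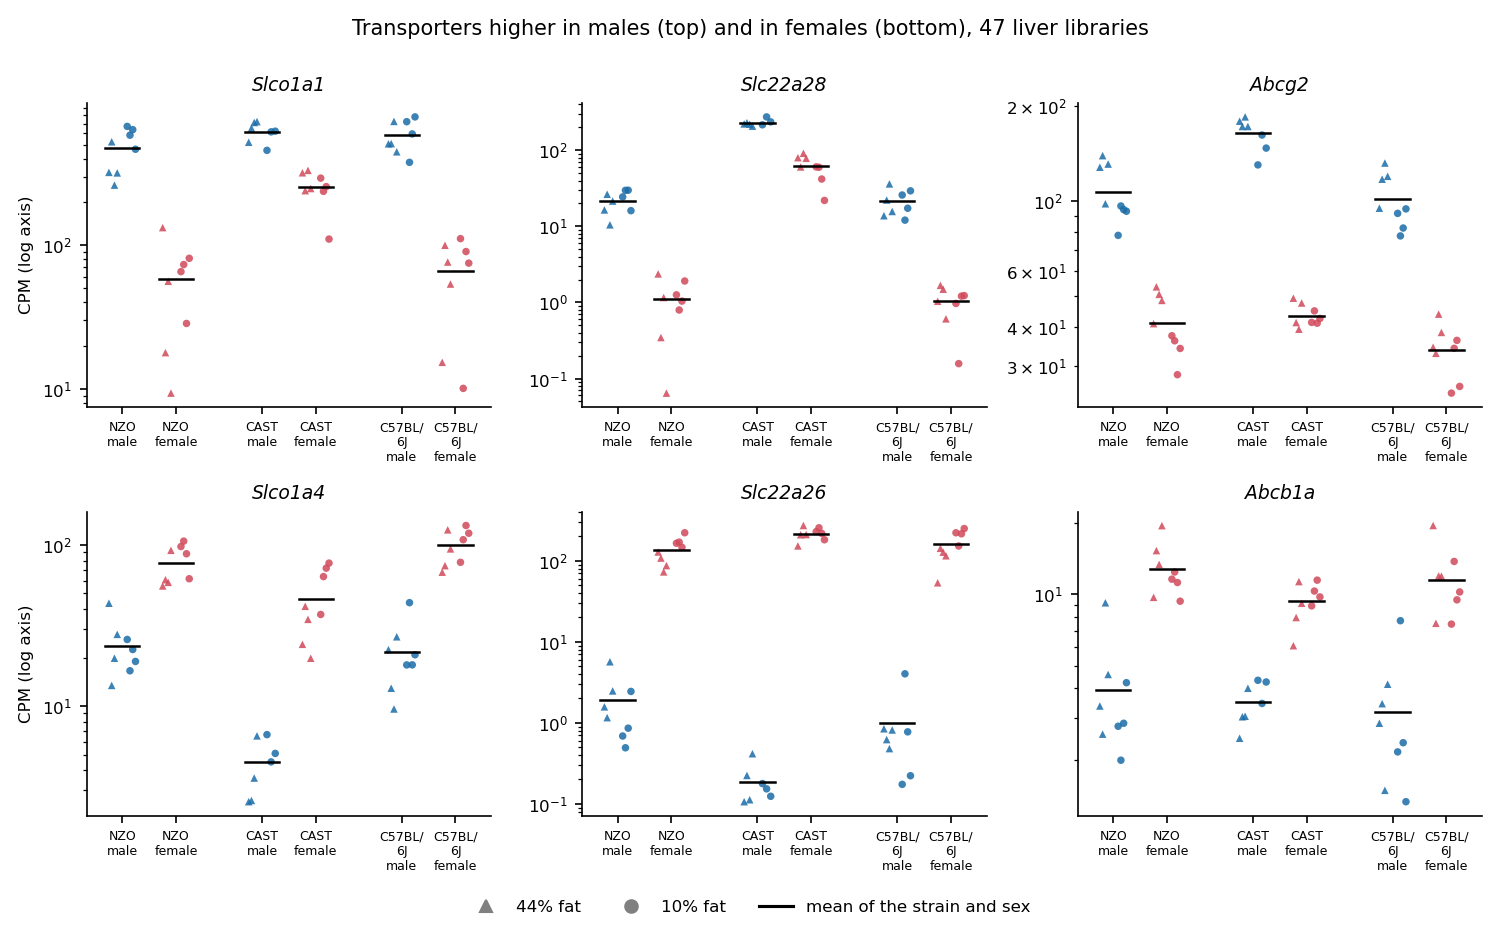
CPM on a log axis for 6 transporters, males left of females within each strain, with triangles for 44% fat, circles for 10% fat and a line at the mean. Slco1a1, Slc22a28 and Abcg2 stand higher in males of all 3 strains and Slco1a4, Slc22a26 and Abcb1a lower, with CAST/EiJ females highest among females for Slc22a28 at 21.9 to 91.2 CPM.

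The largest sex differences lay in a row of Slc22a genes on the minus strand of chromosome 19, which encode organic anion carriers of the OAT type. Slc22a26 (chr19:7781041-7802667) had 0.492 to 5.67 CPM in NZO/HlLtJ males, with a median of 1.37, against 73 to 222 CPM in females, with a median of 138. CAST/EiJ males had 0.106 to 0.415 CPM with a median of 0.153, against 153 to 273 CPM with a median of 215 in females. C57BL/6J males had 0.174 to 4.03 CPM with a median of 0.697, against 53.6 to 250 CPM with a median of 148 in females. Every male library lay below every female library. The log2 fold change over the strains was -7.93 ± 0.27 (edgeR adjusted p 2.93e-23), and the strains differed (adjusted p 0.000165).

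Slc22a27 (chr19:7864388-7966027) followed the same direction. Its libraries ran from 0.207 to 12.9 CPM in NZO/HlLtJ males against 36.5 to 72.6 CPM in females, from 0 to 0.0991 CPM in CAST/EiJ males against 20.2 to 49.8 CPM in females, and from 0.192 to 5.75 CPM in C57BL/6J males against 35.1 to 55.4 CPM in females. Slc22a29 (chr19:8160165-8218900) had at most 2.82 CPM in males of any strain and 1.35 to 8.66 CPM in females. Only in CAST/EiJ did the sexes of Slc22a29 not overlap, with 0 to 0.0495 CPM in males and 2.35 to 4.97 CPM in females. The coding sequences of Slc22a27 and Slc22a29 match at 97.3% of bases, and how reads were divided between them is not given in the sources used here.

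Slc22a28 (chr19:8062209-8131982) and Slc22a30 (chr19:8335371-8405111) differed between strains in opposite directions. Slc22a28 had 10.5 to 29.8 CPM in NZO/HlLtJ males against 0.0643 to 2.37 CPM in females, 207 to 274 CPM in CAST/EiJ males against 21.9 to 91.2 CPM in females, and 12.1 to 36.1 CPM in C57BL/6J males against 0.157 to 1.68 CPM in females. Slc22a30 had 157 to 313 CPM in NZO/HlLtJ males against 149 to 213 CPM in females, and 153 to 274 CPM in C57BL/6J males against 102 to 169 CPM in females. In CAST/EiJ it had 1.12 to 3.37 CPM in males against 0.468 to 3.16 CPM in females. Thus CAST/EiJ was high for Slc22a28 and near 0 for Slc22a30, and the other strains had the reverse. CAST/EiJ against C57BL/6J, the log2 fold change was 4.63 ± 0.24 for Slc22a28 (edgeR adjusted p 6.2e-19), and for Slc22a30 the adjusted p was 3.78e-26.

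These 2 genes are near copies, and the bases before their starts are printed to show how little separates them. Both are RefSeq sequence of build GRCm38.p6 on the minus strand, 150 bases each, 5′ to 3′, with capitals at the 3 bases that differ among 144 aligned bases. The RefSeq start of Slc22a30 was used, which lies inside the gene span given above, so its sequence overlaps the end of that span.
Slc22a28, chr19:8131983-8132132: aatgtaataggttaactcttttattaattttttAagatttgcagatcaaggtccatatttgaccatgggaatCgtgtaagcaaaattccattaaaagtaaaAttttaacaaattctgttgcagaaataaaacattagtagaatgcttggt
Slc22a30, chr19:8405106-8405255: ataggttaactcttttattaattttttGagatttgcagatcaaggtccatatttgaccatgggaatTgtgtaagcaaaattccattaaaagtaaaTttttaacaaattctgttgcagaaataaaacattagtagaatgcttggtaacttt
Their coding sequences match at 1636 of 1656 bases (98.8%), and their transcripts share 703 windows of 100 bases. The deposited counts of both genes were not whole in 47 of 47 libraries, so fractions of reads were assigned to each, and whether reads of CAST/EiJ and NZO/HlLtJ were aligned to a genome of their own strain is not given in the sources used here.

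Summed in CPM, without scaling by exon length, the pair gave a smaller strain difference. Males had 247 ± 67.3 CPM in NZO/HlLtJ (SD, n = 8), 232 ± 22.3 CPM in CAST/EiJ (n = 7) and 231 ± 54.4 CPM in C57BL/6J (n = 8). Females had 184 ± 22.6 CPM in NZO/HlLtJ, 63.1 ± 22.7 CPM in CAST/EiJ and 147 ± 24.1 CPM in C57BL/6J (n = 8 each). The male levels lay within each other's spread, and CAST/EiJ females were lowest. CAST/EiJ against C57BL/6J, the summed log2 fold change was -0.63 ± 0.11 (edgeR adjusted p 5.86e-06), the opposite sign to that of Slc22a28 alone. Male over female it was 1.93 ± 0.16 in CAST/EiJ, 0.65 ± 0.15 in C57BL/6J (adjusted p 0.00262) and 0.41 ± 0.15 in NZO/HlLtJ (adjusted p 0.0633), and the strains differed (adjusted p 4.61e-06). Annotated exons span 2004 bases in Slc22a28 and 3368 bases in Slc22a30, so the strain differences of the sum depend on length. Per kb of exon, Slc22a28 averaged 69.8 CPM in CAST/EiJ, 5.63 in C57BL/6J and 5.73 in NZO/HlLtJ. Slc22a30 averaged 0.56, 52.7 and 60.5 CPM per kb in the same order. On that scale the CAST/EiJ mean of the pair was not the lowest, and a sum scaled by length was not tested.

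**Figure D3:**
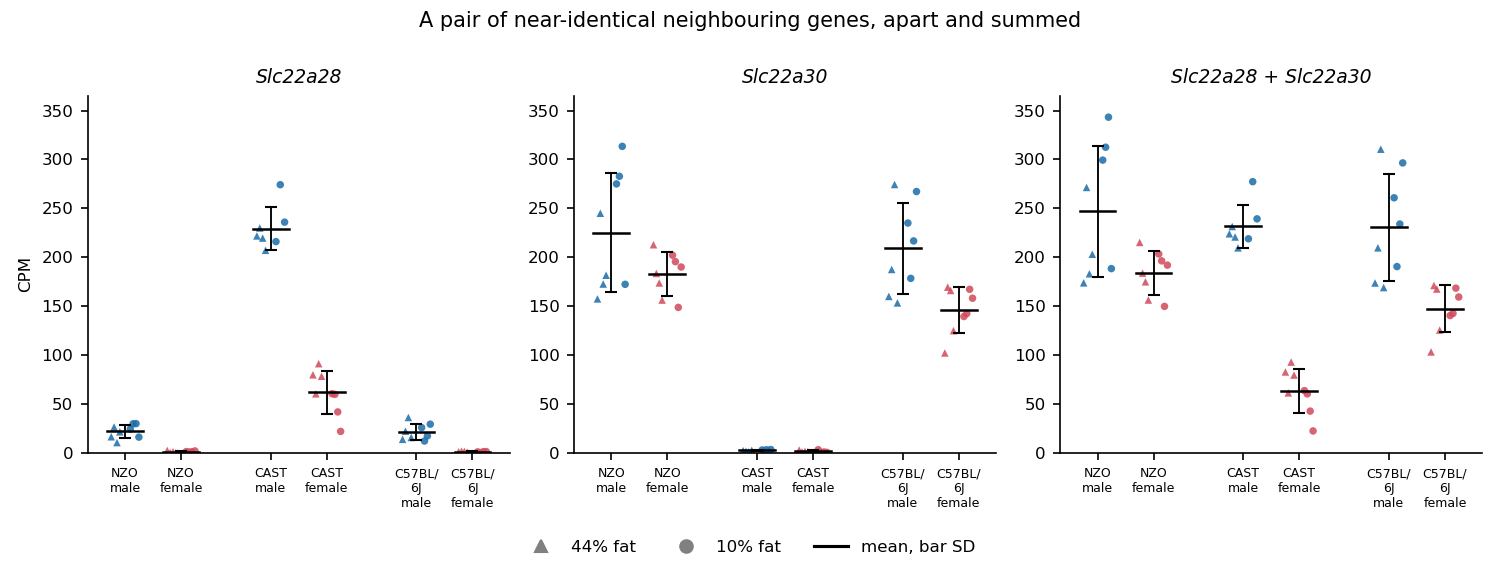
Mean ± SD in CPM of Slc22a28, Slc22a30 and their sum by strain and sex, males left of females. The sum in males, not scaled by exon length, is 247, 232 and 231 CPM in NZO/HlLtJ, CAST/EiJ and C57BL/6J. Slc22a28 makes up nearly all of it in CAST/EiJ and Slc22a30 most of it in the other strains.

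Of the canalicular exporters, Abcg2, which pumps sulfate conjugates, urate and many drugs, was higher in males. NZO/HlLtJ males had 78 to 139 CPM with a median of 97.4, against 28.2 to 53.5 CPM with a median of 39.2 in females. CAST/EiJ males had 130 to 185 CPM with a median of 172, against 39.3 to 49.3 CPM with a median of 41.9 in females. C57BL/6J males had 77.7 to 132 CPM with a median of 94.8, against 24.7 to 43.9 CPM with a median of 34.3 in females. No male library overlapped a female library. On the log2 scale the fold change was 1.62 ± 0.050 over the strains (edgeR adjusted p 3.62e-27), from 1.38 in NZO/HlLtJ to 1.89 in CAST/EiJ, and it differed among strains (adjusted p 0.00817), a call lost with the clock gene score as covariate (0.0634). Abcc2 rose less in males, at 722 ± 71.3 CPM (SD, n = 23) against 612 ± 103 CPM in females (n = 24), a log2 fold change of 0.24 ± 0.043 (adjusted p 1.74e-05).

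Abcb1a, a P-glycoprotein gene for drug efflux, was lower in males. Libraries ran from 1.99 to 9.19 CPM in NZO/HlLtJ males against 9.33 to 19.4 CPM in females, from 2.47 to 4.33 CPM in CAST/EiJ males against 6.06 to 11.4 CPM in females, and from 1.33 to 7.72 CPM in C57BL/6J males against 7.47 to 19.5 CPM in females. The sexes overlapped only in C57BL/6J, where 1 male library, replicate 2 on 10% fat, held 7.72 CPM and is among those with pancreatic RNA. Replicate 3 of that group is among them too and held at most 2.363 CPM. The log2 fold change was -1.65 ± 0.16 (edgeR adjusted p 4.04e-11). Abcc4 fell in males as well, to 2.29 ± 1.22 CPM (SD, n = 23) against 5.53 ± 2.54 CPM in females (n = 24), a log2 fold change of -1.47 ± 0.14 (adjusted p 5.54e-11). Slc47a1, the cation extruder MATE1, had a smaller difference of -0.35 ± 0.048 (adjusted p 1.12e-07), and its NZO/HlLtJ call was lost in 9 of 47 refits that left out 1 library (up to 0.0922).

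Abcb10, a mitochondrial transporter, was higher in males of CAST/EiJ and C57BL/6J. It had 47.8 to 56.7 CPM in CAST/EiJ males against 21.5 to 30.4 CPM in females, 38.1 to 50.5 CPM in C57BL/6J males against 17.4 to 30.9 CPM in females, and 22.1 to 29.1 CPM in NZO/HlLtJ males against 17.1 to 25.3 CPM in females. The sexes overlapped in NZO/HlLtJ and not in the other strains. On the log2 scale the fold change was 1.01 ± 0.082 in CAST/EiJ, 0.80 ± 0.079 in C57BL/6J and 0.21 in NZO/HlLtJ (edgeR adjusted p 0.0609 there), and it differed among strains (adjusted p 4.34e-06).

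Of the 8 multidrug resistance proteins of the Abcc family that were tested, 1 was higher and 6 were lower in males over the strains, against 19% higher and 19.6% lower of all genes, with a median log2 fold change of -0.282 against -0.011 over all genes. Abcc2 was the higher one. Abcc1, Abcc3, Abcc4, Abcc5, Abcc6 and Abcc10 were lower. The Abcc3 call was lost in 12 of 47 refits that left out 1 library and without the 5 libraries with pancreatic RNA (adjusted p 0.0544), and the Abcc6 call was lost in 17 of 47 refits that left out 1 library (up to 0.0973). Within single strains, Abcc3 and Abcc6 were called lower in males of CAST/EiJ only. Group means of each were higher in males in 2 of 6 combinations of strain and diet. Over all libraries, Abcc3 averaged 150 ± 104 CPM in males (SD, n = 23) and 145 ± 82.4 CPM in females (n = 24).

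Abcb1b, the other P-glycoprotein gene, had the smallest adjusted p among the transporters for a sex effect that differed among strains. NZO/HlLtJ males had 15.2 to 35.7 CPM with a median of 22.1, against 18.2 to 33.4 CPM with a median of 21.4 in females. CAST/EiJ males had 43.9 to 75.1 CPM with a median of 55, against 2.89 to 8.75 CPM with a median of 5 in females. C57BL/6J males had 1.02 to 1.88 CPM with a median of 1.14, against 0.418 to 2.33 CPM with a median of 0.558 in females. The sexes stood apart in CAST/EiJ and overlapped in NZO/HlLtJ and C57BL/6J. The log2 fold change was 3.37 ± 0.22 in CAST/EiJ (edgeR adjusted p 8.39e-15) and 0.09 ± 0.20 in NZO/HlLtJ (adjusted p 0.825), and the difference among strains had an adjusted p of 3.77e-10. The C57BL/6J value of 0.79 ± 0.28 (adjusted p 0.045) was lost in 13 of 47 refits that left out 1 library and when that strain was fitted alone (0.086). Abcb1a and Abcb1b match at 88.2% of aligned coding bases and share 488 windows of 100 bases, so part of their reads cannot be assigned to one of them by sequence.

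The sterol half-transporters Abcg5 and Abcg8, whose products work as a pair, were lower in males of CAST/EiJ and C57BL/6J. Abcg5 had 35 to 83.8 CPM in CAST/EiJ males against 101 to 202 CPM in females, 48.1 to 66.2 CPM in C57BL/6J males against 69.5 to 146 CPM in females, and 33.7 to 65 CPM in NZO/HlLtJ males against 32.1 to 59.7 CPM in females. Abcg8 had 89.3 to 160 CPM in CAST/EiJ males against 151 to 265 CPM in females, 68.3 to 94.4 CPM in C57BL/6J males against 82.4 to 136 CPM in females, and 46.7 to 85.5 CPM in NZO/HlLtJ males against 36.7 to 75.7 CPM in females. Only Abcg5 separated the sexes without overlap, in CAST/EiJ and in C57BL/6J. Its log2 fold change was -1.51 ± 0.15 in CAST/EiJ, -0.72 ± 0.14 in C57BL/6J and 0.05 ± 0.14 in NZO/HlLtJ, with a difference among strains at an edgeR adjusted p of 3.5e-06. For Abcg8 the values were -0.71 ± 0.15, -0.42 ± 0.14 and 0.23 ± 0.14, with a difference among strains at 0.00261. The C57BL/6J call of Abcg8 (adjusted p 0.0314) was lost in 7 of 47 refits that left out 1 library and without the 5 libraries with pancreatic RNA (0.156).

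The pair is divergent, so the sequence between both starts is shown. Between the RefSeq starts of Abcg5 (minus strand) and Abcg8 (plus strand) lie 109 bases, printed from the plus strand of GRCm38.p6, 5′ to 3′, with capitals at matches to AGATAA and TATAAA searched on both strands and found here as reverse complements.
Abcg5-Abcg8, chr17:84683012-84683120: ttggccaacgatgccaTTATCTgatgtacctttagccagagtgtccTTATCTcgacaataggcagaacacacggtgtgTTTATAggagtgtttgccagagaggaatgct
The interval holds 2 AGATAA matches and 1 TATAAA match. Among 32851 windows of 109 bases before annotated starts, 3.98% hold AGATAA, 0.186% hold it at least 2 times, and 5.9% hold TATAAA. A match is a description of letters, not of binding. In the annotation Abcg5 (chr17:84658234-84683011) and Abcg8 (chr17:84676302-84700333) overlap on opposite strands, and whether reads were counted by strand is not given in the sources used here, so reads in the overlap may be shared.

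**Figure D4:**
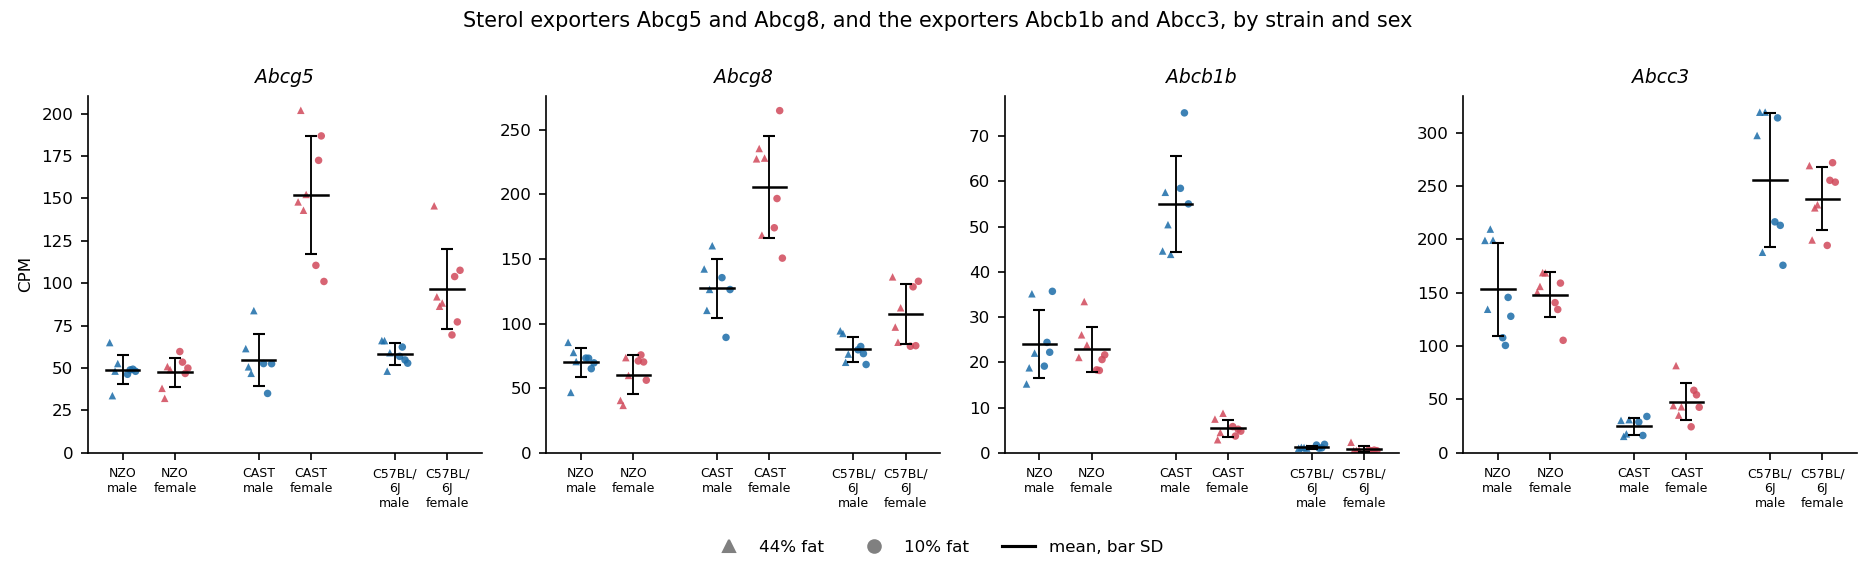
Mean ± SD in CPM of Abcg5, Abcg8, Abcb1b and Abcc3 by strain, males left of females. CAST/EiJ females hold the highest Abcg5 (152 ± 34.9 CPM) and Abcg8 (206 ± 39.3 CPM), and CAST/EiJ males the highest Abcb1b (55 ± 10.6 CPM).

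Between strains, 7 of the 47 transporters were higher in both NZO/HlLtJ and CAST/EiJ than in C57BL/6J, 7 were lower in both, and 6 went opposite ways, where 13.4%, 12.4% and 10.3% of all genes tested did so. Both comparisons share the C57BL/6J libraries. Cell markers differed between strains as well. In NZO/HlLtJ 4 of 5 stellate cell markers were lower than in C57BL/6J, with sums of 160 to 198 CPM in NZO/HlLtJ and 179 to 358 CPM in C57BL/6J, and so were 4 of 5 pericentral hepatocyte markers, with sums of 3630 to 6660 CPM and 2350 to 8630 CPM. In CAST/EiJ all 6 Kupffer cell markers were lower, with sums of 83.1 to 278 CPM in CAST/EiJ and 168 to 308 CPM in C57BL/6J, as were all 4 lymphocyte markers, with sums of 0.247 to 1.1 CPM and 1.23 to 2.51 CPM. Of 6 cholangiocyte markers, 3 were lower in NZO/HlLtJ and 4 in CAST/EiJ. The part of these markers in the strain differences was not tested. Higher in both were Slc22a3, Slc22a4, Slc22a7, Slc22a18, Abcb1b, Abcb8 and Abcg2. Slc22a7, the organic anion transporter OAT2, had 34.5 to 150 CPM in NZO/HlLtJ with a median of 80.8 and 90.3 to 184 CPM in CAST/EiJ with a median of 137, against 9.02 to 42.2 CPM in C57BL/6J with a median of 24.5. Slc22a3, the cation carrier OCT3, had 5.53 to 23.4 CPM in NZO/HlLtJ and 4.87 to 15.2 CPM in CAST/EiJ, against 1.01 to 4.52 CPM in C57BL/6J. Neither gene's CAST/EiJ libraries overlapped C57BL/6J, and only Slc22a7 overlapped between NZO/HlLtJ and C57BL/6J. On the log2 scale the fold changes of Slc22a7 were 1.81 ± 0.16 in NZO/HlLtJ and 2.60 ± 0.17 in CAST/EiJ, with edgeR adjusted p of 6.46e-12 and 2.57e-16. Those of Slc22a3 were 2.04 ± 0.14 and 1.83 ± 0.14, with adjusted p of 4.38e-16 and 5.05e-15. Abcb1b differed most among the 7, at 4.60 ± 0.18 in NZO/HlLtJ and 4.17 ± 0.18 in CAST/EiJ. The Abcg2 call in NZO/HlLtJ (0.18 ± 0.059) was lost without the 5 libraries with pancreatic RNA (adjusted p 0.185).

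Lower in both strains were Slco1a6, Abcc2, Abcc3, Abcc5, Abcc10, Abcc12 and Abcg3. Abcc3, the basolateral exporter of glucuronides, had 101 to 210 CPM in NZO/HlLtJ with a median of 148 and 15.4 to 81.7 CPM in CAST/EiJ with a median of 34.1, against 176 to 319 CPM in C57BL/6J with a median of 243. CAST/EiJ did not overlap either of the other strains. The log2 fold change was -0.73 ± 0.13 in NZO/HlLtJ (edgeR adjusted p 7.77e-06) and -2.83 ± 0.14 in CAST/EiJ (adjusted p 3.91e-20). Slco1a6, a further importer of the chromosome 6 row, had 0.0508 to 0.45 CPM in NZO/HlLtJ and 0 to 0.128 CPM in CAST/EiJ, against 1.04 to 3.54 CPM in C57BL/6J, with adjusted p of 1.53e-14 and 5.99e-19. Abcg3, named here after its values were seen, had 1.26 to 4.09 CPM in NZO/HlLtJ and 0.26 to 1.03 CPM in CAST/EiJ, against 1.64 to 5.29 CPM in C57BL/6J. Without the 5 libraries with pancreatic RNA the NZO/HlLtJ calls of Abcc2 and Abcg3 were lost (adjusted p 0.112 and 0.057).

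The 6 that went opposite ways were Slco2b1, Slco3a1, Slc47a1, Abcb6, Abcg5 and Abcg8, with the NZO/HlLtJ call of Abcb6 lost without the 5 libraries with pancreatic RNA (0.069). Slco2b1, an importer of sulfated steroids, and Slc47a1 were higher in NZO/HlLtJ and lower in CAST/EiJ, with log2 fold changes of 0.26 ± 0.064 and -0.33 ± 0.065 for Slco2b1 and of 0.45 ± 0.058 and -0.22 ± 0.059 for Slc47a1. The deposited counts of Slco2b1 were not whole in 47 of 47 libraries, so fractions of reads were assigned to it. Slco3a1 was lower in NZO/HlLtJ, at 1.45 to 3.07 CPM, and higher in CAST/EiJ, at 6.09 to 11 CPM, against 3.12 to 6.64 CPM in C57BL/6J. Abcg8 was likewise lower in NZO/HlLtJ (-0.51 ± 0.099) and higher in CAST/EiJ (0.80 ± 0.10). For Abcg5 the NZO/HlLtJ change was -0.64 ± 0.10, while the CAST/EiJ change of 0.26 ± 0.10 (edgeR adjusted p 0.0229) was lost in 3 of 47 refits, without CAST/EiJ females on 10% fat replicate 3, CAST/EiJ males on 10% fat replicate 3 or CAST/EiJ males on 44% fat replicate 4 (up to 0.0559), and with the clock gene score as covariate (0.344). Slco1b2 was also higher in CAST/EiJ than in C57BL/6J, by 0.31 ± 0.075 on the log2 scale, a call lost with the clock gene score as covariate (0.0713).

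Abcc9, a sulfonylurea receptor subunit, averaged 25.4 ± 2.99 CPM in NZO/HlLtJ (SD, n = 16) and 36.4 ± 4.77 CPM in C57BL/6J (n = 16), a log2 fold change of -0.52 ± 0.072 (edgeR adjusted p 1e-07). Abcb8, a mitochondrial transporter, averaged 28.8 ± 2.45 CPM in NZO/HlLtJ and 27.3 ± 2.47 CPM in CAST/EiJ, against 23.2 ± 3.34 CPM in C57BL/6J, and its CAST/EiJ call was lost with the clock gene score as covariate (0.141). Abcg1 fell in males, to 5.93 ± 1.34 CPM (n = 23) against 8.11 ± 2.23 CPM in females (n = 24), a log2 fold change of -0.48 ± 0.081 (adjusted p 6.45e-06). Slc22a18, named here after its values were seen, averaged 64.5 ± 7.45 CPM in NZO/HlLtJ and 80.8 ± 10.2 CPM in CAST/EiJ, against 57.1 ± 8.04 CPM in C57BL/6J. Several members stood near the limit of detection. Slc47a2 had 0.124 to 0.572 CPM in CAST/EiJ against at most 0.135 CPM in C57BL/6J (adjusted p 1.05e-07). Abcc12 had at most 0.315 CPM in NZO/HlLtJ and 0.0838 CPM in CAST/EiJ, against 0.0721 to 3.32 CPM in C57BL/6J, where the highest value came from 1 library with pancreatic RNA. Slco4a1, Slc22a17 and Slc22a21 stayed under 1 CPM in every library, as did Slc22a13b-ps, a pseudogene by its symbol.

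The 44% fat diet called 6 transporters in NZO/HlLtJ, all higher, where 5.64% of all genes were called (3.5% higher and 2.14% lower). It called 1 in CAST/EiJ, higher, against 0.895% of all genes (0.498% higher and 0.396% lower), and 2 in C57BL/6J, both higher, against 0.991% (0.823% higher and 0.168% lower). Slco2a1, which the naming rule leaves out, was lower on 44% fat in NZO/HlLtJ (log2 fold change -0.63 ± 0.11, edgeR adjusted p 0.000363). The diet effect was not called as differing among strains for any transporter: edgeR, DESeq2 and limma each called 0, edgeR's smallest adjusted p was 0.236, and 8 of 47 had an unadjusted p under 0.05 (17.0%, against 10.6% of all genes), where edgeR called 0.048% of all genes after adjustment. It was not called as differing between the sexes either, with 0 calls by each of the 3 tools, a smallest adjusted p of 0.654, and 3 of 47 at an unadjusted p under 0.05 (6.38%, against 5.44% of all genes), where 0.012% of all genes were called after adjustment.

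Abcb4, the phosphatidylcholine floppase of the canaliculus, had 313 to 576 CPM in NZO/HlLtJ on 44% fat with a median of 391, against 199 to 339 CPM with a median of 273 on 10% fat. CAST/EiJ had 279 to 439 CPM with a median of 374 on 44% fat, against 158 to 377 CPM with a median of 283 on 10% fat. C57BL/6J had 306 to 480 CPM with a median of 380 on 44% fat, against 245 to 481 CPM with a median of 331 on 10% fat. The diets overlapped in each strain. On the log2 scale the fold change was 0.58 ± 0.12 in NZO/HlLtJ (edgeR adjusted p 0.00174) and 0.40 ± 0.069 over the strains (adjusted p 0.000176). The CAST/EiJ call, 0.47 ± 0.12 at an adjusted p of 0.0484, was lost in 34 of 47 refits that left out 1 library (up to 0.235) and with identifier run as covariate (0.0769).

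Slc22a3 had the largest diet effect over the strains among the transporters called. NZO/HlLtJ had 10.9 to 23.4 CPM with a median of 15.4 on 44% fat, against 5.53 to 10.7 CPM with a median of 6.34 on 10% fat, with no overlap. The log2 fold change was 1.19 ± 0.18 in NZO/HlLtJ (edgeR adjusted p 7.15e-05) and 0.83 ± 0.11 over the strains (adjusted p 3.43e-06). Abcg2 had 41 to 139 CPM on 44% fat in NZO/HlLtJ, against 28.2 to 96.6 CPM on 10% fat, ranges that hold both sexes. Its log2 fold change was 0.48 ± 0.084 in NZO/HlLtJ (adjusted p 0.000314) and 0.34 ± 0.049 over the strains (adjusted p 1.19e-05). The C57BL/6J call of Abcg2, 0.37 ± 0.084 at an adjusted p of 0.0197, was lost in 6 of 47 refits that left out 1 library, without the 5 libraries with pancreatic RNA (0.0936), and when C57BL/6J was fitted alone (0.19).

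Slc47a1 also rose on 44% fat over the strains, by 0.22 ± 0.048 on the log2 scale (edgeR adjusted p 0.00191). Within strains the Slc47a1 calls were weak: 0.26 ± 0.082 in NZO/HlLtJ (adjusted p 0.0474) was lost in 28 of 47 refits that left out 1 library, and 0.33 ± 0.082 in C57BL/6J (adjusted p 0.0337) in 10 of 47 and when that strain was fitted alone (0.205). Abcb6 rose by 0.26 ± 0.051 in NZO/HlLtJ (adjusted p 0.00122), with 67.5 to 90 CPM on 44% fat against 56.7 to 69.8 CPM on 10% fat. The group means of Abcb4, Abcg2, Slc22a3 and Slc47a1 were higher on 44% fat in 6 of 6 combinations of strain and sex.

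The other diet calls were lost in some refits that left out 1 library. Slc22a29 in NZO/HlLtJ, at 0.176 to 8.66 CPM on 44% fat against 0.111 to 2.41 CPM on 10% fat, was lost without NZO/HlLtJ males on 44% fat replicate 3 (edgeR adjusted p 0.0679) and when summed with Slc22a27 (0.0809). Abcg1, a cholesterol exporter, rose over the strains (adjusted p 0.0459, lost in 28 of 47 refits). Slc22a17 and Abcc10 fell over the strains (adjusted p 0.0481 and 0.0334, lost in 31 and 5 of 47 refits, and at 0.169 and 0.114 without the 5 libraries with pancreatic RNA). Hepatocyte markers moved with diet in NZO/HlLtJ, with sums of 62000 to 104000 CPM on 44% fat and 83000 to 133000 CPM on 10% fat and 3 of 6 markers lower on 44% fat, and their part in these diet calls was not tested.

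**Figure D5:**
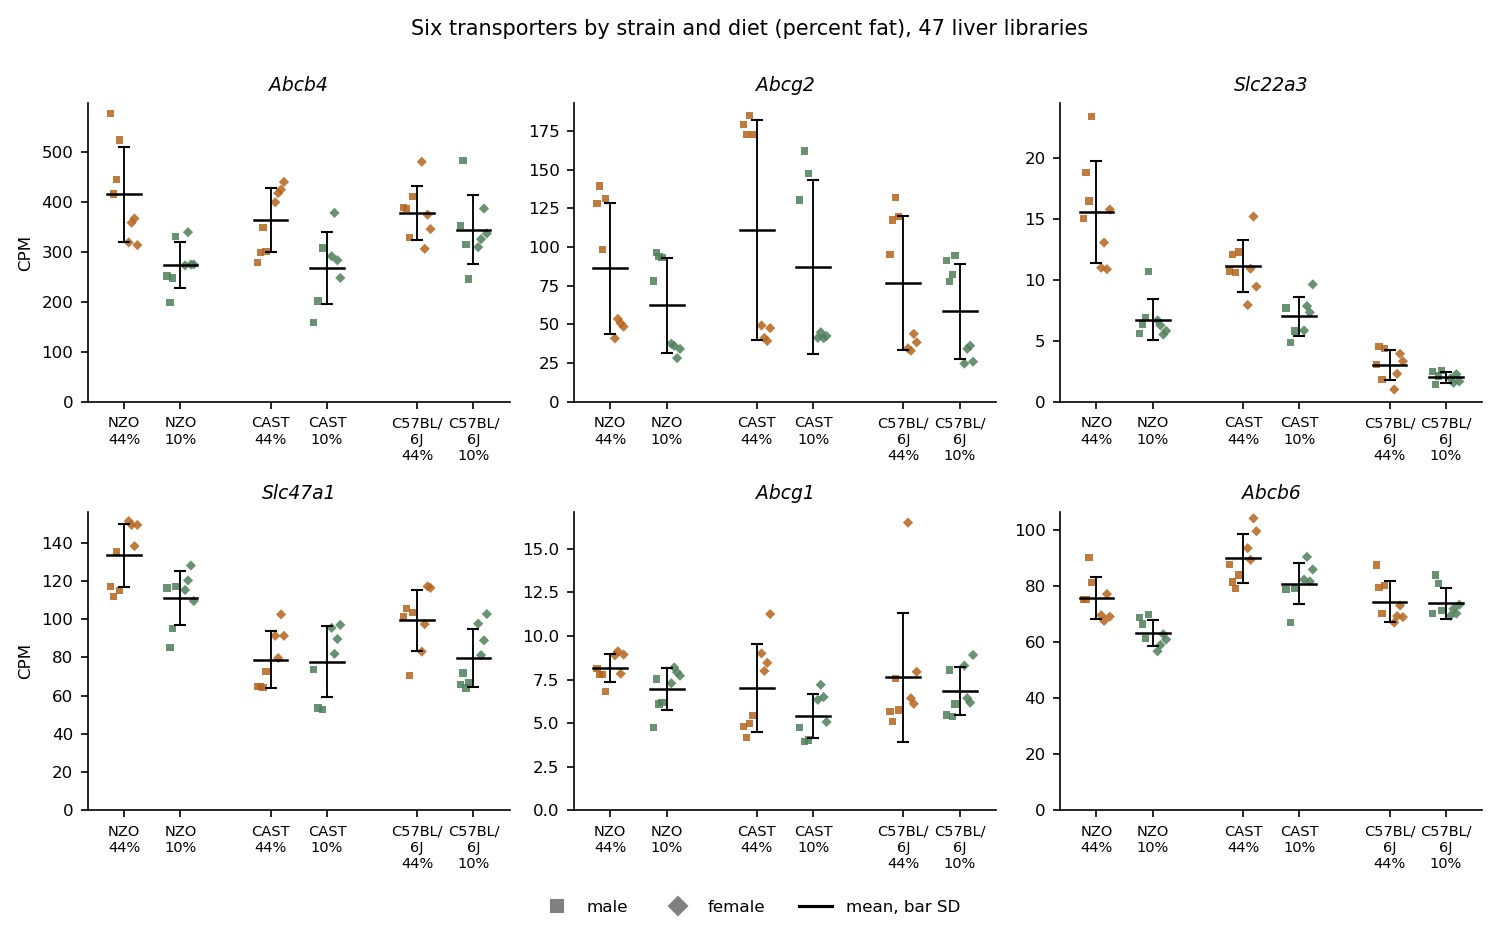
CPM of 6 transporters by strain, 44% fat left of 10% fat, with squares for males, diamonds for females and mean ± SD. Slc22a3 in NZO/HlLtJ shows no overlap between the diets, with 15.6 ± 4.18 CPM on 44% fat and 6.75 ± 1.68 CPM on 10% fat.

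Other genes of the pathways around the transporters were counted from lists, to be read against 38.6% of all genes called for sex (19% higher and 19.6% lower) and 9.42% called for diet. Of 10 regulators tied to growth hormone and sex hormones, 2 were higher and 6 lower in males over the strains. Among them Cux2, a repressor known from female mouse liver, had 0.198 to 0.847 CPM in males against 6.16 to 98.9 CPM in females, and Bcl6, a repressor known from male mouse liver, was higher in males by 1.41 ± 0.31 on the log2 scale (edgeR adjusted p 0.000369). Of 16 regulators that sense xenobiotics and bile acids, 2 were higher and 5 lower in males, and Nr1i3, the receptor CAR, had 44.8 to 209 CPM in males against 74.7 to 347 CPM in females (log2 fold change -0.94 ± 0.14, adjusted p 7.61e-07). Of 12 enzymes known as targets of CAR and PXR, 1 was higher and 5 lower in males. Over the strains, diet called 0 of the 16 sensing regulators, 0 of the 10 hormone regulators and 3 of the 12 target enzymes. It also called 3 of 14 other bile and solute transporters and scaffolds, 1 higher and 2 lower on the high-fat diet. Slc10a2, a bile acid importer, was higher by 1.09 ± 0.24 on the log2 scale (adjusted p 0.0025). Lower were Slco2a1, at -0.598 ± 0.064 (adjusted p 9.69e-08), and Abcb11, at -0.141 ± 0.042 (adjusted p 0.0268). The genes named from these lists were named after their values were seen.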

How the data were processed

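Polyadenylated RNA in 47 mouse liver libraries was sequenced with 100 base paired-end reads, per the labels' protocols. The authors deposited expected counts per gene and, from these, log2 variance-stabilized values; the submitters' processing notes name GRCm38 and DESeq2, and neither the aligner nor the use of strand is given in the sources used here. Of the expected counts, 20.3% were not whole (tolerance 1e-06), and they were rounded. Genes passed edgeR's filterByExpr over the 12 groups (16650 of 20320). TMM scaling and edgeR 4.0.16 quasi-likelihood tests (R 4.3.3) used 1 mean per group over all 47 libraries (35 residual degrees of freedom), with contrasts averaged over the other factors and Benjamini-Hochberg adjustment over all genes tested. CPM are TMM-scaled, and the SE is the log2 fold change divided by the square root of F.

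The members and lists were chosen with earlier results of these data known. Transporters are named where they have a known place in hepatocytes (17 genes), where they are among the 4 highest or 4 lowest log2 fold changes called in a comparison, among the 6 smallest p for a difference of effects, or where a comparison calls 5 or fewer; other names were added after their values were seen. Alternatives were DESeq2 1.42.0, its size factors, no filter, a stricter filter, limma 3.58.1 on the deposited log2 values, identifier run as covariate or within runs, a clock gene score as covariate (Dbp and Ciart minus Arntl and Npas2), each strain alone, each library left out, leaving out libraries with Cpa1 of at least 20 CPM, and summed near-identical pairs. The same fit was tested on simulated counts of 16234 genes. For sex it recovered 75.3% of 97 planted 1.5-fold and 91.8% of 98 planted 2-fold changes. For diet in NZO/HlLtJ it recovered 53.0% and 75.0% of 100 planted changes of each size. These are smaller shares of genes than were called in the data, so the recovery rates need not hold there. Sequences are from RefSeq (GRCm38.p6), which matched 37 of 50 members, and gene positions and exon lengths are from GENCODE M21 (GRCm38). Counts cover all members, and some members are not reported here by name.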

Additional observations from a re-analysis of the deposited data

Results flagged for a closer look

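In 394 combinations of a gene and a group of 4 libraries, 36 named transporters were checked for 1 library far from the other 3, and 32 were found. Chance alone flags about 1 in 20 combinations, a rate that was not checked for counts near 0. The other libraries held 0 CPM for Abcc12 in CAST/EiJ females on either diet and for Slco1c1 in NZO/HlLtJ females on 10% fat. They also held 0 CPM for Slc47a2 in C57BL/6J females on 44% fat and in NZO/HlLtJ males on 10% fat. A few reads in 1 library set these flags. Replicate 2 of C57BL/6J males on 10% fat, which holds pancreatic RNA, was high for 5 genes that are lower in males: Slco1a4 at 43.8 CPM (others 17.99 to 20.81), Slc22a26 at 4.029 CPM (0.174 to 0.7739), Slc22a27 at 5.748 CPM (0.2222 to 0.8157), Slc22a29 at 2.823 CPM (0.1243 to 0.3765) and Abcb1a at 7.724 CPM (1.333 to 2.363). Replicate 3 of that group held more Cpa1, at 74.1 CPM against 41.4 CPM, and lay among the others for these 5 genes. The part of pancreatic RNA in these values was not tested. Replicate 1 of C57BL/6J females on 44% fat, which holds pancreatic RNA too, was high for Abcb1b at 2.334 CPM (0.4754 to 0.6305), Abcc4 at 11.67 CPM (4.403 to 5.404), Abcc12 at 3.32 CPM (0.2002 to 0.3378) and Abcg5 at 145.6 CPM (86.39 to 91.95), and low for Slco1a6 at 1.083 CPM (1.963 to 2.117). Replicate 2 of these females, with Cpa1 at 41 CPM against 82 CPM in replicate 1, lay among the others for these genes. Replicate 3 of C57BL/6J males on 44% fat was low for Abcc3 at 187.9 CPM (297.3 to 319.2), Slc47a1 at 70.44 CPM (101.5 to 105.5) and Slc22a27 at 0.1922 CPM (1.888 to 2.039).

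The other C57BL/6J values were high for Abcc12 in females on 10% fat, replicate 3, at 0.7258 CPM, and for Slc47a2 in females on 44% fat, replicate 4, at 0.1351 CPM. In NZO/HlLtJ females on 44% fat, replicate 4 was high for Slco1a4 at 92.52 CPM (others 55.6 to 60.77) and Abcc12 at 0.3 CPM, and replicate 3 was low for Slc47a1 at 138.2 CPM. NZO/HlLtJ females on 10% fat were high for Abcb4 in replicate 2 at 338.8 CPM, Slc22a18 in replicate 3 at 73.79 CPM and Slco1c1 in replicate 1 at 0.06396 CPM, and low for Slco1b2 in replicate 3 at 748.9 CPM. NZO/HlLtJ males were low for Abcc3 on 44% fat, replicate 2, at 134.5 CPM, and high on 10% fat, replicate 4, for Slc22a27 at 3.093 CPM and Slc47a2 at 0.1085 CPM. In CAST/EiJ females on 44% fat, Abcg5 was high in replicate 2 at 201.9 CPM, Abcg8 low in replicate 3 at 168.4 CPM and Abcc12 high in replicate 4 at 0.04971 CPM. CAST/EiJ females on 10% fat were high for Abcc12 in replicate 2 at 0.08376 CPM and Slc22a30 in replicate 1 at 3.156 CPM, and low for Slco2b1 in replicate 2 at 121.8 CPM. In CAST/EiJ males on 44% fat, Slc47a1 was high in replicate 4 at 72.71 CPM.

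The sex effect differed among the 3 strains for 17 transporters by edgeR's test. The adjusted p was 3.77e-10 for Abcb1b, 3.5e-06 for Abcg5, 4.34e-06 for Abcb10, 6.9e-06 for Slco1c1, 0.00012 for Slc22a28, 0.000165 for Slc22a26, 0.000209 for Slco3a1, 0.000325 for Abcb6, 0.000452 for Slc22a29, 0.00213 for Slc22a27, 0.00261 for Abcg8, 0.00661 for Abcc3, 0.00817 for Abcg2, 0.00841 for Slco1a4, 0.0232 for Abcb4, 0.0282 for Slco1a1 and 0.04 for Abcc4. The call of Abcb4 was lost in 3 of 47 refits that left out 1 library, and that of Abcc4 in 13 of 47. With the clock gene score as covariate the calls of Abcc4 (adjusted p 0.0821), Abcg2 (0.0634) and Slco1a1 (0.0611) were lost, with identifier run as covariate that of Abcc4 (0.0571), and with limma on the deposited values those of Abcc4 (0.373) and Slc22a27 (0.133).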

How the results depend on the processing

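No paired analysis was possible because the labels carry no replicate numbers. The count of transporters called for diet in C57BL/6J was 2 and became 1 with the clock gene score, 0 with the strain fitted alone, 1 without the 5 libraries high in Cpa1, and 0 to 4 when 1 library was left out. In CAST/EiJ the count was 1 and became 3 with DESeq2, 0 with DESeq2's size factors, 0 with the clock gene score, 0 with identifier run as covariate, 2 with limma on the deposited values, 0 with no filter, 2 without the Cpa1 libraries, and 0 to 3 when 1 library was left out. The counts of the other comparisons stayed within 1.5 times under these alternatives. Within identifier runs 1, 2 and 3, whose fits hold fewer libraries, fewer of the members called were called again: 15, 13 and 18 of 30 for sex, 14, 10 and 12 of 24 for NZO/HlLtJ against C57BL/6J, 25, 28 and 24 of 39 for CAST/EiJ against C57BL/6J, 25, 25 and 27 of 37 for NZO/HlLtJ against CAST/EiJ, and 0 of 9 for diet in each run. Of 206 calls of the 36 named transporters, 205 held with DESeq2, 197 with limma and 201 with identifier run as covariate. Without the Cpa1 libraries 186 held, with the clock gene score 185, and 177 held whichever library was left out. Calls of transporters outside these 36 are not in this count. Signs reversed for Slc22a26, CAST/EiJ against C57BL/6J, with limma (0.002056) and within run 1 (0.1738) and run 3 (0.09628). Against CAST/EiJ, NZO/HlLtJ gave -0.2693 for Abcb1b within run 1 and -0.03415 for Slc22a26 within run 3. Abcg2, NZO/HlLtJ against C57BL/6J, was -0.06199 within run 2. For sex, reversed values were -0.0652 for Abcb1b in C57BL/6J within run 1, 0.06367 for Abcg1 in C57BL/6J within run 2, -0.2697 for Slc22a30 in CAST/EiJ within run 1 and 0.05118 for Abcc6 over the strains within run 1. The cause was not tested. Summing Slc22a28 with Slc22a30 turned the log2 fold change to -0.6251 for CAST/EiJ against C57BL/6J and to 0.8275 for NZO/HlLtJ against CAST/EiJ, by the sum's own construction. The summed counts were not scaled by exon length. Depth limits the genes near 0, among them Slc22a2, Slc22a13 and Abcg4, which were not tested.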
